A study of Mus musculus with 10 samples.

Results

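The PPARs, their retinoid X receptor partners, the PGC-1 coactivators and the estrogen-related receptors were followed in interscapular brown adipose tissue (iBAT) of mice without the receptor tyrosine kinase AXL. The 10 genes were fixed by name: Pparg, Ppara, Ppard, Rxra, Rxrg, Ppargc1a, Ppargc1b, Esrra, Esrrb and Esrrg, out of 41249 gene identifiers with counts. The whole depot was sequenced from 5 whole-body, constitutive Axl KO mice and 5 wild-type (WT) littermates, 1 library per mouse. All 10 mice were on a high-fat diet (HFD) for 24 weeks, started at 6 to 8 weeks of age per the labels, at room temperature, and the paper describes them as male on a C57BL/6 background. The Axl allele is a knockout-first allele (tm1a), in which a trapping cassette in an intron diverts splicing of the transcript, and the line was made from 2 clones of embryonic stem cells. Because Axl was disrupted in every tissue and from conception, these libraries cannot tell a change that arose in brown adipocytes from one that reached the depot from elsewhere.

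PPARs bind fatty acids and related lipids, pair with a retinoid X receptor (RXR), and switch on genes of lipid uptake, storage and oxidation. PPARγ is required for fat cells to form, PPARα is abundant in tissues that burn fatty acids, brown fat among them, and PPARδ is found in most tissues. PGC-1α and PGC-1β do not bind DNA themselves: they are recruited by PPARs, by estrogen-related receptors (ERRs) and by other factors, and raise the transcription of mitochondrial and fatty acid oxidation genes. In brown fat PGC-1α is a known target of cold and β-adrenergic signaling through cAMP.

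In these depots the 10 genes were expressed in all mice, and none differed between Axl KO and WT mice after adjustment. Axl, the disrupted gene, fell from 43.1 ± 5.86 CPM (counts scaled to a common normalized library size, mean ± SD, n = 5) in WT mice to 1.57 ± 0.646 CPM in Axl KO mice, without overlap (log2 fold change -4.77, adjusted p = 1.1e-07 with edgeR), and no other gene passed that test. Total counts were between 5431014 and 9580215 per mouse. Ucp1, the uncoupling protein that defines brown fat, was between 2990 and 7632 CPM, and all 10 brown adipocyte markers were detected. Skeletal muscle RNA varied widely: the sum of 24 muscle markers was between 30.7 and 10596 CPM in Axl KO mice and between 2163 and 11167 CPM in WT mice. All 24 muscle markers were lower on average in Axl KO mice (median log2 fold change -0.99, and 0 had an unadjusted p under 0.05 with edgeR or with DESeq2). The 10 brown adipocyte markers were all higher on average. With edgeR 7 of them (70.0%, against 8.4% of all genes tested) had an unadjusted p under 0.05 and 0 were called. With DESeq2 these counts were 8 and 2, and DESeq2 called 9 genes in all. The sum of the 10 brown adipocyte markers was 8931 to 12641 CPM in Axl KO and 7133 to 9333 CPM in WT mice. Fibroblast markers were higher for 0 of 8, endothelial markers for 2 of 10, macrophage markers for 4 of 9, general adipocyte markers for 6 of 7 and white adipocyte markers for 1 of 4. In edgeR 0 of these were called, and 1, 2, 0, 0 and 0 had an unadjusted p under 0.05, against 8.4% of all genes tested. Each value is an average over the cells of the depot, so fewer cells of a type and less RNA per cell cannot be told apart.

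Promoter sequence was taken for 9 of the 10 genes from RefSeq windows on GRCm38.p6 (17 windows, each the 250 bases upstream of an annotated start). No window of Ppargc1b was searched, so the motif counts below do not cover it. The 4 windows below are shown because they belong to the most abundant receptor (Pparg, at the last of its 3 RefSeq starts), to the coactivator known for its answer to cAMP (Ppargc1a), to the most abundant ERR (Esrra), and to the RXR whose window holds a pair of receptor half-sites (Rxra, at the second of 2 starts). They lie at chr6:115421816-115422065 (plus strand), chr5:51567726-51567975 (minus strand), chr19:6921809-6922058 (minus strand) and chr2:27709042-27709291 (plus strand). Of their bases, 0, 1, 5 and 0 lie in a GENCODE M21 exon, the few in exons of Ppargc1a and Esrra themselves, and the Pparg and Rxra windows lie in introns of longer transcripts of those genes. Capitals mark every match, on either strand, to AGGTCA (the half-site that most of these receptors bind), to TGACG (the half-site of the cAMP response element), or to a longer motif named below.
Pparg, last start: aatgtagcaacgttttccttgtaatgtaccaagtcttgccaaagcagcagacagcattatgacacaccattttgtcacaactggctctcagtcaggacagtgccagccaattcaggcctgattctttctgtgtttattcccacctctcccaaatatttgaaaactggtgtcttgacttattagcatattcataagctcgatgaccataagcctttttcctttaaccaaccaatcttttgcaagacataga
Ppargc1a: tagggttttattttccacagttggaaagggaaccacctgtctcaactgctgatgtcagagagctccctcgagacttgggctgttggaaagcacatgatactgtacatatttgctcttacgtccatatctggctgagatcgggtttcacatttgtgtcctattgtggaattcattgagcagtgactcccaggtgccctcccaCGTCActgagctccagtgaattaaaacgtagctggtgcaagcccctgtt
Esrra: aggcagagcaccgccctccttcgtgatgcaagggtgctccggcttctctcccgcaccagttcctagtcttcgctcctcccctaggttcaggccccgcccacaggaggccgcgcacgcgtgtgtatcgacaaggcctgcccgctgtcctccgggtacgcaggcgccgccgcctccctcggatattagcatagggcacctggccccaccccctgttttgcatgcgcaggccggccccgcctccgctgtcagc
Rxra, second start: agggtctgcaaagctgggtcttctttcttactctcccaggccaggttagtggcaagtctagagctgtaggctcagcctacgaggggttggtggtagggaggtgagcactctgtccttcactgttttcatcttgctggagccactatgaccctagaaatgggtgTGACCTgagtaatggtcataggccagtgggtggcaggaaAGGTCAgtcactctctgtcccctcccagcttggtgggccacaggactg

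The Ppargc1a window holds 1 TGACG, on the minus strand relative to the gene (read as CGTCA), at bases -49 to -45 counted from the start. The Rxra window holds AGGTCA 2 times, at -87 to -82 on the opposite strand (read as TGACCT) and at -48 to -43. The Pparg and Esrra windows hold none of the letters searched. Among all 32851 RefSeq windows of this length, 17.8% hold TGACG and 14.0% hold AGGTCA, so single matches are common. Among the other windows, the first and the second Pparg window and the second Rxrg window hold 1 AGGTCA each, the Ppara window 1 TGACG and the first Esrrb window 2. Of the 250 bases of each, 193 and 57 (Pparg), 0 (Rxrg), 150 (Ppara) and 0 (Esrrb) lie in GENCODE M21 exons of the same gene. The full cAMP response element TGACGTCA (1.55% of all windows), the ERR element TNAAGGTCA (1.14%), the direct repeat of AGGTCA with 1 base between, the element of PPAR–RXR pairs (0.0335%) and the E-box CACGTG (6.02%) were in none of the 17. TGACGTCA contains TGACG, and the ERR and PPAR–RXR elements contain AGGTCA, so these searches overlap. Each match is a match of letters and not a measured site.

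Pparg had the highest level of the 10 genes and of all 49 nuclear receptors with values. Levels of different genes were compared as RPKM, the CPM per kilobase of exon. Pparg had 119 ± 6.15 RPKM (SD over the 10 mice), 1.5 times the level of Ppara (79.1 ± 21.5), and it was above Ppara in 10 of 10 mice. Esrra followed at 31.6 ± 3.59 RPKM, then Ppargc1b at 24.5 ± 4.95, Rxra at 14.8 ± 0.813, Rxrg at 12.9 ± 1.55 and Ppargc1a at 10.5 ± 1.34. Esrrg (5.72 ± 0.593), Ppard (1.30 ± 0.345) and Esrrb (0.729 ± 0.211) had the lowest levels. The ranges over the mice overlapped between the neighbours Esrra and Ppargc1b, Ppargc1b and Rxra, Rxra and Rxrg, Rxrg and Ppargc1a, and Ppard and Esrrb. Within single mice the first gene of these pairs was above the second in 9, 10, 9, 10 and 10 of 10 mice. The order was the same when the longest protein-coding transcript gave the length.

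**Figure D1:**
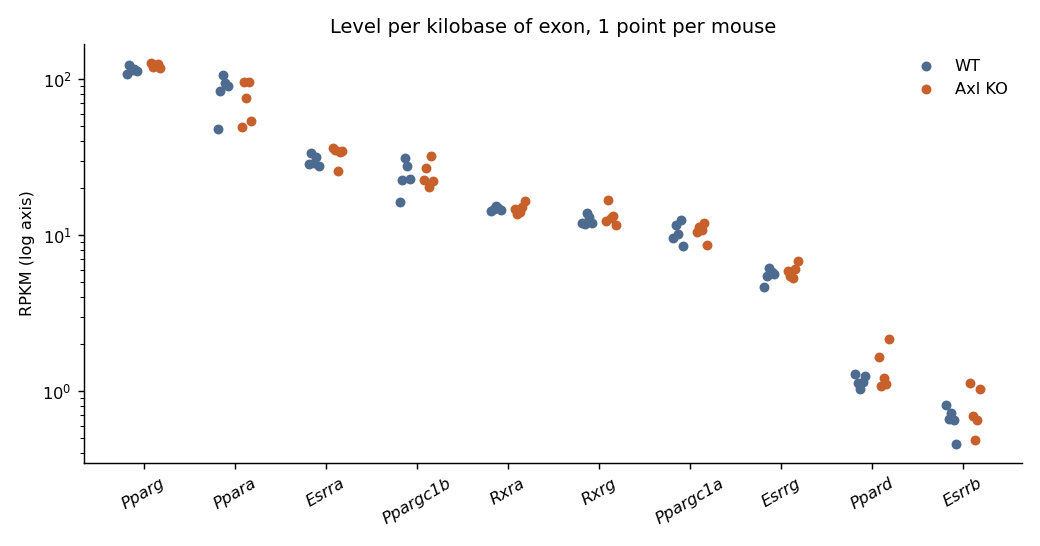
Level of each of the 10 genes in RPKM on a log axis, with 1 point per mouse (5 WT and 5 Axl KO). Pparg lies between 108 and 127 RPKM and Esrrb between 0.458 and 1.12 RPKM, and the points of both genotypes overlap for every gene.

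Within the PPARs, the share of each gene in the summed RPKM of Pparg, Ppara and Ppard showed what the depot mostly expressed. Pparg made up 62.7 ± 6.94% in Axl KO and 57.9 ± 6.53% in WT mice (SD, n = 5 each), Ppara 36.6 ± 7.22% and 41.5 ± 6.66%, and Ppard 0.753 ± 0.323% and 0.596 ± 0.137%. These shares did not differ beyond the spread between mice (exact permutation tests, two-sided, p = 0.262, 0.262 and 0.365). The RXRs were near even: Rxra made up 36.7 ± 3.20% in Axl KO and 37.5 ± 0.432% in WT mice, Rxrb, the remaining RXR, 30.4 ± 1.77% and 30.6 ± 1.97%, and Rxrg 32.9 ± 4.07% and 31.9 ± 1.82%. Of the PGC-1 pair, Ppargc1b made up the larger part per length in every mouse, 69.9 ± 3.04% in Axl KO and 69.3 ± 5.06% in WT mice. Of the ERRs, Esrra made up 83.1 ± 1.53% and 82.9 ± 1.54%, Esrrg 14.9 ± 1.52% and 15.3 ± 1.64%, and Esrrb 1.97 ± 0.512% and 1.83 ± 0.386%. None of the RXR, PGC-1 and ERR shares differed beyond the spread between mice (exact permutation tests, p between 0.603 and 0.881).

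All 10 members passed the filter on low counts (a mean above 1 CPM), and 0 of 10 were called at an adjusted p under 0.05 with edgeR, against 0.00728% of the 13739 genes tested. None had an unadjusted p under 0.05 with edgeR, against 8.4% of the genes tested. DESeq2 also gave none at an unadjusted p under 0.05 and called 0 of the 10, against 9 genes called in all. The share of all genes at an unadjusted p under 0.05 was not computed for DESeq2. None of the 10 separated the 5 Axl KO from the 5 WT mice without overlap, against 1.35% of the genes tested. The mean was higher in Axl KO mice for 9 of the 10, with Ppara the exception, and the median log2 fold change was 0.09 against 0.00 over all genes (49.8% of all genes were higher). Fold changes below are log2 differences of Axl KO minus WT from edgeR, with SE and 95% interval, and positions are those of GENCODE M21 on GRCm38.

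**Figure D2:**
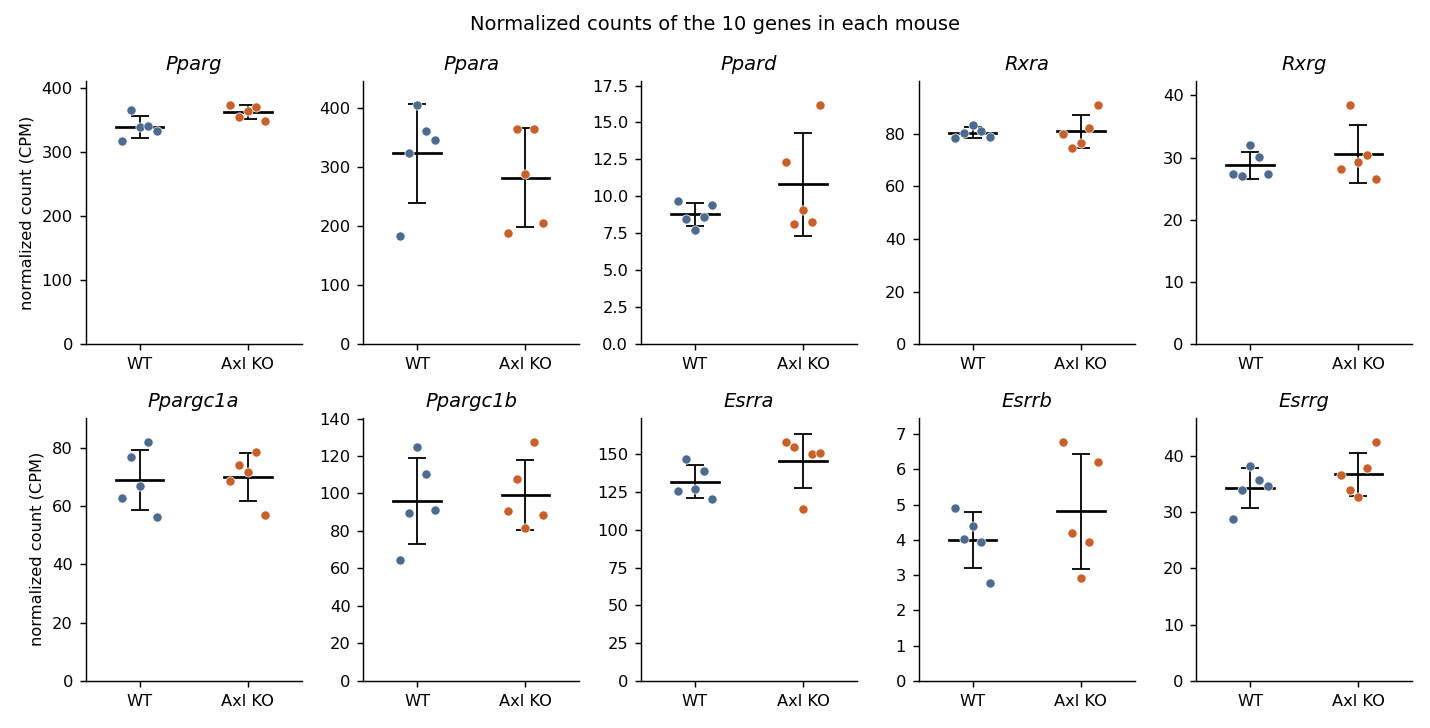
Normalized counts (CPM) of the 10 genes in each of the 5 WT and 5 Axl KO mice. Horizontal lines are means and bars are SD. Ppara has 3 mice near 200 CPM (184, 189 and 206) and Esrra has 1 low Axl KO mouse at 114 CPM.

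Pparg (ENSMUSG00000000440, chr6:115360951-115490399, plus strand) encodes the regulator of fat cell identity and was among the most even genes of the depot. It had 374, 355, 365, 371 and 349 CPM in Axl KO replicates 1 to 5, and 318, 366, 339, 341 and 334 CPM in WT replicates 1 to 5. The 5 Axl KO mice were all above the WT median, and the groups overlapped because WT replicate 2 lay within the Axl KO range. The log2 fold change was 0.10 ± 0.05 (SE; interval -0.02 to 0.21; adjusted p = 0.645 with edgeR), a ratio between 0.984 and 1.16. An exact permutation test of the mean log2 CPM of this one gene gave p = 0.0397 (two-sided), 1 of 10 such tests on the members, whereas edgeR's unadjusted p was 0.106. Within genotypes the SD of Pparg was 0.059 on the log2 scale, and only 7.67% of the 287 genes at a similar level varied less.

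Ppara (ENSMUSG00000022383, chr15:85734983-85802819, plus strand) encodes the fatty acid oxidation receptor and varied far more. It had 189, 365, 288, 366 and 206 CPM in Axl KO replicates 1 to 5, and 184, 324, 406, 361 and 346 CPM in WT replicates 1 to 5. The highest mouse had 2.21 times the level of the lowest, and low values occurred in both genotypes: Axl KO replicates 1 and 5 and WT replicate 1 lay at 184 to 206 CPM and the other 7 mice at 288 to 406 CPM. The SD within genotypes was 0.448 (log2), above that of 96.7% of the 363 genes at a similar level, whose median was 0.11. No difference between genotypes was detectable (log2 fold change -0.20 ± 0.22, interval -0.68 to 0.29, adjusted p = 0.82), and an interval this wide covers ratios from 0.624 to 1.22. The value depended on single mice: it was -0.08 without Axl KO replicate 1, -0.10 without Axl KO replicate 5 or WT replicate 3, -0.31 without Axl KO replicate 2 or 4 and -0.35 without WT replicate 1. The sum of the skeletal muscle markers in the 3 low mice was 87.0 CPM in Axl KO replicate 1, 10596 CPM in Axl KO replicate 5 and 9193 CPM in WT replicate 1, and it was 30.7 to 11167 CPM in the other 7. With a skeletal muscle score as a covariate the log2 fold change was -0.28, and the part of muscle RNA in the spread of Ppara was not tested.

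Ppard (ENSMUSG00000002250, chr17:28232700-28301474, plus strand) encodes the broadly expressed PPAR and had 12.3, 8.12, 9.09, 8.30 and 16.2 CPM in Axl KO replicates 1 to 5, and 9.69, 8.46, 7.75, 8.60 and 9.44 CPM in WT replicates 1 to 5. Axl KO replicates 1 and 5 were above all WT mice and the other 3 were within the WT range. The log2 fold change was 0.28 ± 0.18 (interval -0.11 to 0.68, adjusted p = 0.676), and 0.10 without Axl KO replicate 5. At 50 to 86 reads per mouse, Ppard rests on few counts.

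Rxra (ENSMUSG00000015846, chr2:27676440-27762957, plus strand) encodes a partner of the PPARs and had 79.8, 74.7, 76.6, 82.2 and 90.9 CPM in Axl KO replicates 1 to 5, and 78.2, 80.4, 83.4, 81.0 and 78.6 CPM in WT replicates 1 to 5. The means were 80.8 ± 6.32 and 80.3 ± 2.06 CPM, and the interval of the log2 fold change, -0.12 to 0.14, was the narrowest after that of Pparg. Rxrg (ENSMUSG00000015843, chr1:167598384-167639623, plus strand) encodes a retinoid X receptor also found in muscle and had 28.2, 38.5, 29.4, 30.4 and 26.5 CPM in Axl KO replicates 1 to 5, and 27.3, 27.0, 32.0, 30.1 and 27.3 CPM in WT replicates 1 to 5. Axl KO replicate 2, the mouse with the lowest muscle marker sum (30.7 CPM), had the highest Rxrg, and leaving it out moved the log2 fold change from 0.09 ± 0.10 to 0.00, whereas it was 0.14 without Axl KO replicate 5 or WT replicate 3. With a skeletal muscle score as a covariate it was likewise 0.00. Rxrg was 28.2 CPM in Axl KO replicate 1 (muscle marker sum 87.0 CPM) and 26.5 CPM in Axl KO replicate 5 (10596 CPM). It was 32.0 CPM in WT replicate 3, the mouse with the highest muscle marker sum (11167 CPM). The part of muscle RNA in the Rxrg value was not tested. Rxrb, not a member, had 48.9 ± 4.25 CPM in Axl KO and 47.6 ± 2.77 CPM in WT mice (log2 fold change 0.04, interval -0.12 to 0.19).

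No difference between genotypes was detectable for either PGC-1 coactivator. Ppargc1a (ENSMUSG00000029167, chr5:51454250-51567726, minus strand), which encodes PGC-1α, had 68.5, 73.9, 71.5, 78.6 and 56.8 CPM in Axl KO replicates 1 to 5, and 62.7, 76.6, 66.9, 82.0 and 56.2 CPM in WT replicates 1 to 5. The groups covered almost the same range, and the log2 fold change of 0.02 ± 0.11 had an interval of -0.21 to 0.26, ratios of 0.864 to 1.20. Ppargc1b (ENSMUSG00000033871, chr18:61298136-61400431, minus strand), which encodes PGC-1β, had 90.4, 108, 81.4, 128 and 88.6 CPM in Axl KO replicates 1 to 5, and 64.7, 89.4, 125, 111 and 91.4 CPM in WT replicates 1 to 5. The lowest value was that of WT replicate 1, also the lowest for Ppara, and the log2 fold change was 0.04 ± 0.16 (interval -0.31 to 0.40). Within genotypes Ppargc1b varied more than 94.9% of the genes at a similar level and Ppargc1a more than 87.7%.

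Esrra (ENSMUSG00000024955, chr19:6910977-6921813, minus strand) encodes ERRα, an activator of oxidative phosphorylation genes, and had 158, 155, 114, 150 and 151 CPM in Axl KO replicates 1 to 5, and 126, 147, 127, 139 and 121 CPM in WT replicates 1 to 5. Axl KO replicates 1, 2, 4 and 5 were above all 5 WT mice and Axl KO replicate 3 was below all of them. The log2 fold change was 0.14 ± 0.09 (interval -0.06 to 0.34, adjusted p = 0.676 with edgeR). Without Axl KO replicate 3 it was 0.22 ± 0.07 (interval 0.08 to 0.36), with an unadjusted p = 0.0061 and an adjusted p = 0.178 in edgeR, and 14.8% of all genes tested then had an unadjusted p under 0.05. With a skeletal muscle score as a covariate, on all 10 mice, it was 0.06. Axl KO replicate 3 also had the highest white adipocyte marker sum of the 10 mice (692 CPM, against 242 to 627 CPM in the others) and the highest macrophage marker sum (258 CPM, against 145 to 245 CPM). Its general adipocyte marker sum was the lowest of the 10 (11160 CPM, against 11359 to 14079 CPM), and its brown adipocyte marker sum (8931 CPM) was the lowest of the Axl KO mice. The part of any of these in the Esrra value was not tested. Of the exon bases of Esrra, 164 are shared with Trmt112 (opposite strand) and Mir6990 (same strand), and the strand setting of the counting is not given in the sources used here.

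Esrrg and Esrrb, the other ERRs, showed no difference that exceeded their spread. Esrrg (ENSMUSG00000026610, chr1:187608791-188214885, plus strand) had 36.6, 34.0, 32.8, 37.8 and 42.5 CPM in Axl KO replicates 1 to 5, and 28.8, 33.9, 38.3, 35.8 and 34.7 CPM in WT replicates 1 to 5 (log2 fold change 0.10 ± 0.09, interval -0.10 to 0.29). Axl KO replicate 5 was the highest and WT replicate 1 the lowest, and without either of these mice the log2 fold change was 0.04. Esrrb (ENSMUSG00000021255, chr12:86361117-86521628, plus strand) had 2.77 to 6.79 CPM over the 10 mice, 22 to 44 reads per mouse, and the interval of its log2 fold change (0.24 ± 0.24) ran from -0.28 to 0.76. It was 0.08 without Axl KO replicate 1, 0.13 without Axl KO replicate 5 or WT replicate 5 and 0.39 without Axl KO replicate 3.

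**Figure D3:**
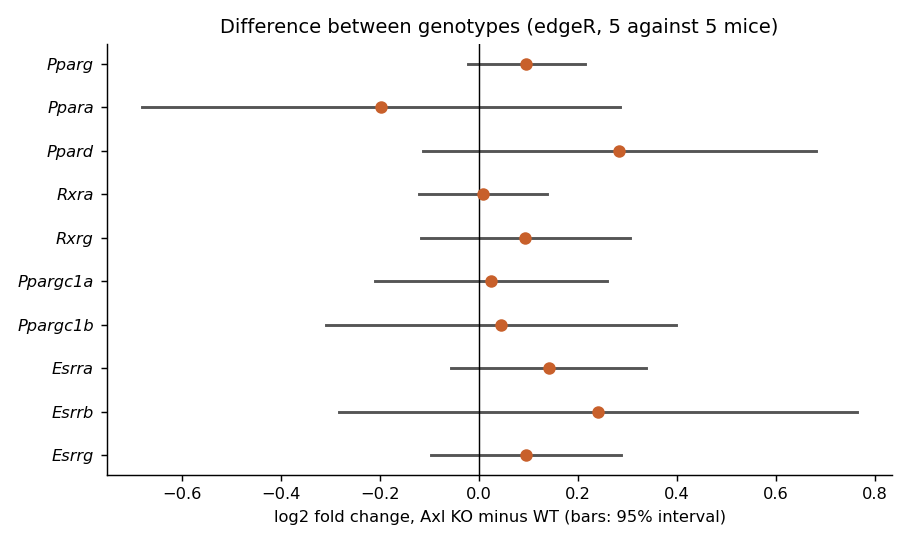
Log2 fold change of each of the 10 genes, Axl KO minus WT, with its 95% interval from edgeR (5 against 5 mice). Each interval includes 0, and those of Ppara and Esrrb are the widest, from -0.68 to 0.29 and from -0.28 to 0.76.

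Among the 47 tested genes of a list of 50 PPAR targets, 38 had a higher mean in Axl KO mice. Their median log2 fold change was 0.09 against 0.00 over all genes. None was called with edgeR, whereas DESeq2 called 2, among them Gk (adjusted p = 0.0215), and 7 (14.9%, against 8.4% of all genes) had an unadjusted p under 0.05, of which 6 were higher. The 3 with the lowest p included Gk, glycerol kinase, and Acot1, an acyl-CoA thioesterase. Gk was 424 ± 81.8 CPM in Axl KO and 253 ± 57.8 CPM in WT mice (0.75 ± 0.17 on the log2 scale, adjusted p = 0.571), and Acot1 was 5.11 ± 2.39 and 1.98 ± 0.655 CPM (1.38 ± 0.36, adjusted p = 0.571). Gk, with Ucp1 and Cidea, is also on the list of brown adipocyte markers, which were higher in Axl KO mice as given above, and the part of the brown adipocyte content in these values was not tested.

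Axl KO replicate 3 had the lowest Gk and Acot1 of the Axl KO mice, as it had the lowest Esrra. Without it, 19 of the 47 PPAR targets had an unadjusted p under 0.05 (17 higher), against 14.8% of all genes, and 0 were called, and without Axl KO replicate 5 the number was 4. Of the 48 ERR and PGC-1 targets, mostly respiratory chain and citric acid cycle genes, 35 had a higher mean in Axl KO mice, and the median log2 fold change was 0.04. With edgeR 2 of them (4.17%, against 8.4% of all genes) had an unadjusted p under 0.05, with DESeq2 4, and 0 were called with either tool. Without Axl KO replicate 3 that 2 became 8 of the 48, when 14.8% of all genes had an unadjusted p under 0.05. Without Axl KO replicate 1 or WT replicate 1, 3 or 4 the number was 1. The 3 genes with the lowest p were Cox8b, a brown fat and muscle subunit of cytochrome c oxidase (0.24 ± 0.06, without overlap, adjusted p = 0.571), Slc25a4, the ADP/ATP carrier of muscle and heart (-0.17 ± 0.08, adjusted p = 0.588), and Etfdh, which passes electrons to the respiratory chain (0.39 ± 0.18, adjusted p = 0.597). Cox8b is also on the list of brown adipocyte markers, and the part of the brown adipocyte content in its value was not tested. Slc25a4 is also a muscle gene and the muscle marker sum differed between mice as given above, and the part of muscle RNA in the value of Slc25a4 was not tested. Acadm, Acadvl, Cpt1b and Pdk4 were on both lists.

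Of 36 coactivators and corepressors of nuclear receptors, 11 had a higher mean in Axl KO mice, the median log2 fold change was -0.04, and 0 had an unadjusted p under 0.05 with edgeR or DESeq2. The lowest p values were those of Ncoa3, a coactivator of the steroid receptor family (-0.15 ± 0.08), Asxl1, a chromatin regulator (-0.18 ± 0.11), and Med1, the Mediator subunit that nuclear receptors contact (0.08 ± 0.05), with adjusted p between 0.625 and 0.681. Of 41 other nuclear receptors, 26 passed the filter and 13 had a higher mean. With edgeR 2 of them (7.69%, against 8.4% of all genes) had an unadjusted p under 0.05, and 0 were called with edgeR or DESeq2. Rarg, a retinoic acid receptor, had 8.49, 8.72, 9.79, 8.01 and 6.77 CPM in Axl KO and 12.6, 11.5, 10.9, 11.5 and 10.7 CPM in WT replicates 1 to 5, without overlap (log2 fold change -0.44 ± 0.11, adjusted p = 0.571). Nr1h3, the oxysterol receptor LXRα, was 85.5 ± 8.92 CPM in Axl KO and 74.7 ± 3.80 CPM in WT mice (0.19 ± 0.07, adjusted p = 0.571). The heme receptor Nr1d2 came next by p (-0.16 ± 0.08), and its relative Nr1d1 (-0.07 ± 0.19) and the thyroid hormone receptor Thra (-0.14 ± 0.10) had adjusted p of 0.943 and 0.707.

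The members also varied among themselves from mouse to mouse. After the mean of each genotype had been removed from the log2 CPM values, 0 of 45 pairs had an adjusted p under 0.05 for Pearson's r, and 7 had an unadjusted p under 0.05 (permutation tests, 100000 resamples). Ppara and Ppargc1b were among the closest pairs (r = 0.82, permutation p = 0.00299, adjusted p = 0.0691; rho = 0.85, permutation p = 0.00278, adjusted p = 0.0625; n = 10). The r was 0.72 without Axl KO replicate 1 and WT replicate 1, the mice farthest from the median of Ppara, and 0.82 in the 7 mice with more than 250 CPM of Ppara. Rxra and Esrrg had r = 0.82 (permutation p = 0.00307, adjusted p = 0.0691) and rho = 0.89 (permutation p = 0.00105, adjusted p = 0.0472), and r = 0.83 without Axl KO replicates 2 and 5. This was the pair that passed the adjusted threshold for rho. The permutations shuffled mice across both genotypes after the genotype means had been removed, so their p can be too low, and an adjusted p this near 0.05 is uncertain. Ppara and Ppard varied in opposite directions (r = -0.76, permutation p = 0.00934, adjusted p = 0.14; rho = -0.81, permutation p = 0.00656, adjusted p = 0.0678), and r was -0.92 without Axl KO replicate 1 and WT replicate 1. All values of a mouse come from 1 library, which the genes of a pair share. Values of r in fewer mice kept the genotype means of all 10 mice, so an offset between genotypes can return in them.

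**Figure D4:**
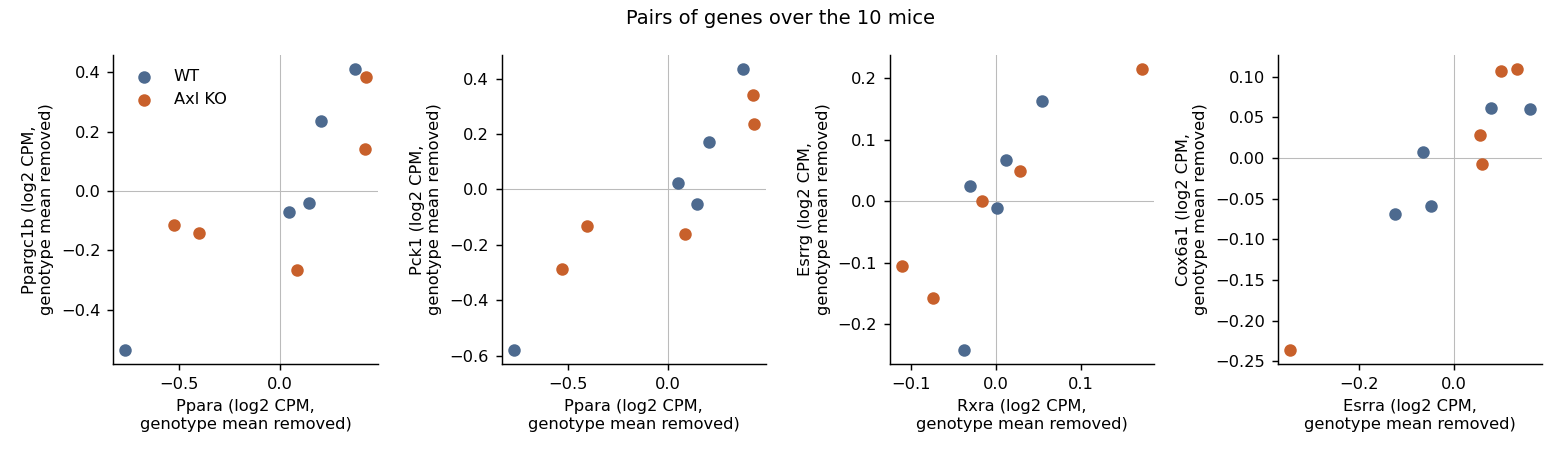
Values of 4 pairs of genes in the 10 mice as log2 CPM with the mean of the mouse's genotype removed, 1 point per mouse. WT replicate 1 is the lowest point for Ppara in the Ppara–Ppargc1b and Ppara–Pck1 panels, and Axl KO replicate 3 is the lowest point for Esrra in the Esrra–Cox6a1 panel (r = 0.82, 0.92, 0.82 and 0.95 from left to right).

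Each member was then compared with the 91 tested genes of both target lists, which made 910 relations, of which 6 had an adjusted p under 0.05 for Pearson's r (permutation tests, 100000 resamples) and 0 for rho. The genes named here were chosen by these values. Mice were again shuffled across both genotypes, so p can be too low, and most of the 6 adjusted p lie near 0.05. Pck1, which supplies glycerol phosphate in fat cells, rose and fell with Ppara (r = 0.92, permutation p = 4e-05, adjusted p = 0.0364; rho = 0.89, permutation p = 0.00103, adjusted p = 0.157). Its level was 3430, 5307, 3751, 4938 and 3828 CPM in Axl KO and 2733, 4156, 5527, 4602 and 3942 CPM in WT replicates 1 to 5, lowest in WT replicate 1 and highest in WT replicate 3, as for Ppara. The r was 0.79 without Axl KO replicate 1 and WT replicate 1, and 0.86 in the 7 mice with more than 250 CPM of Ppara.

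Ppargc1b varied with Pck1 (r = 0.93, permutation p = 0.00015, adjusted p = 0.0455; rho = 0.92, permutation p = 0.00043, adjusted p = 0.157), with Pdk4, the kinase that holds back pyruvate oxidation (r = 0.93, permutation p = 0.00013, adjusted p = 0.0455; rho = 0.90, permutation p = 0.0007, adjusted p = 0.157), and with Aqp7, the glycerol channel (r = 0.90, permutation p = 0.00022, adjusted p = 0.047; rho = 0.87, permutation p = 0.00215, adjusted p = 0.175). Without WT replicates 1 and 3, which lie farthest from the median of Ppargc1b, these r were 0.82, 0.87 and 0.81. No genotype difference was detectable for Pdk4 or Pck1 (log2 fold changes 0.00 ± 0.22 and 0.02 ± 0.17). Esrra varied with Cox6a1, a cytochrome c oxidase subunit (r = 0.95, permutation p = 0.00031, adjusted p = 0.047; rho = 0.87, permutation p = 0.00231, adjusted p = 0.175), with r = 0.77 without Axl KO replicate 3 and WT replicate 5. Esrrb varied with Retsat, retinol saturase (r = 0.85, permutation p = 0.0003, adjusted p = 0.047; rho = 0.77, permutation p = 0.0124, adjusted p = 0.279), with r = 0.76 without Axl KO replicates 1 and 3. The Esrrb values rest on few counts, 22 to 44 reads per mouse.

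Over whole lists, the share of ERR and PGC-1 targets that varied with a member was highest for Esrra with all 10 mice. This order of the shares rested on 1 mouse, Axl KO replicate 3. The median r of these targets was highest for Esrra with and without that mouse. Of the 48 genes, 32 (66.7%) had r above 0.5 with Esrra and 0 had r below -0.5, with a median r of 0.64, whereas 13.9% of all genes tested had r above 0.5 and their median was -0.01. Of the 47 PPAR targets, 22 (46.8%) had r above 0.5 with Esrra. These shares were lower without Axl KO replicate 3: then 29.2% of the ERR and PGC-1 targets, 21.3% of the PPAR targets and 6.9% of all genes had r above 0.5, and without Axl KO replicate 3 and WT replicate 5 the shares were 25.0%, 12.8% and 7.7%. In all shares with mice left out, the genotype means removed were still those of all 10 mice. An offset between genotypes, set in part by the mice left out, can therefore remain in these shares. Rxra and Esrrg had 37.5% and 35.4% of the ERR and PGC-1 targets above 0.5 with all 10 mice, against 15.0% and 12.6% of all genes. Without Axl KO replicate 3 they had 33.3% and 29.2% (15.4% and 12.6% of all genes). By share alone Rxra was then above Esrra and Esrrg level with it, but Esrra had only 6.9% of all genes above 0.5. The median r of these targets was then 0.35 for Esrra, 0.21 for Rxra and 0.13 for Esrrg. These medians also kept the genotype means of all 10 mice. Without the 2 mice farthest from the median of each member, Rxra had 50.0% (16.5% of all genes), Esrrg 27.1% (11.02%) and Ppargc1b 47.9% (12.7%), the last up from 16.7% with all 10 mice (11.4%). Pparg, the most even member, had 2.1% of the PPAR targets above 0.5 and 5.9% of all genes. Ppargc1a had 12.5% of the ERR and PGC-1 targets above 0.5 with all 10 mice (9.3% of all genes) and 39.6% without Axl KO replicate 5 and WT replicate 5, its mice farthest from the median (11.6% of all genes). Ppara had 21.3% of the PPAR targets above 0.5 and 10.6% below -0.5, against 11.2% and 10.2% of all genes. Genes of a list are not independent replicates, and these shares are descriptions without a test.

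**Figure D5:**
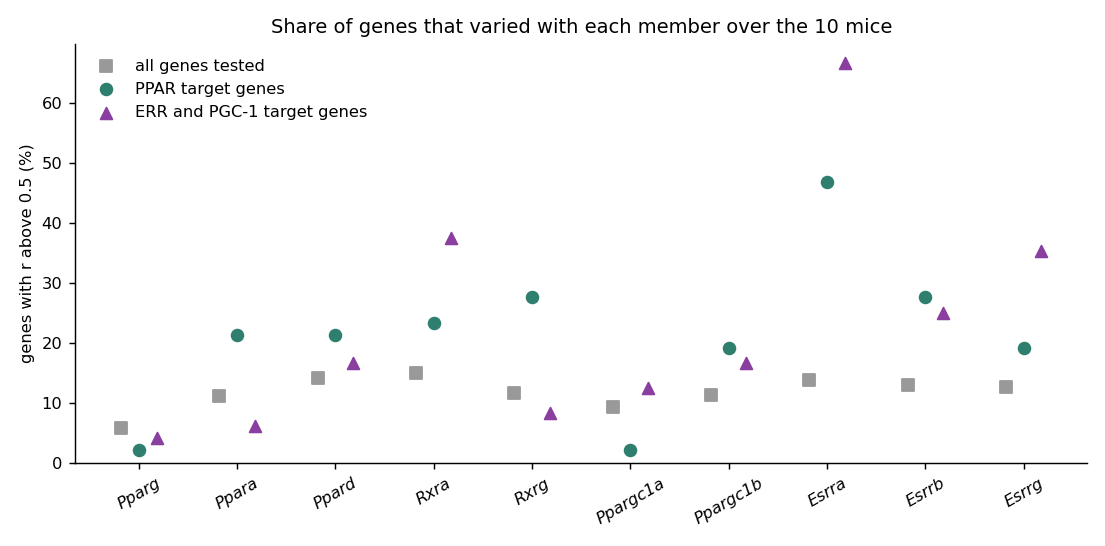
Share of genes (%) whose log2 CPM, with genotype means removed, had r above 0.5 with each of the 10 members over the 10 mice, for all genes tested (squares), PPAR targets (circles) and ERR and PGC-1 targets (triangles). The triangle of Esrra is at 66.7% against 13.9% for all genes. Without Axl KO replicate 3 these become 29.2% against 6.9%, and those of Rxra are then 33.3% against 15.4%. The values without that mouse still use the genotype means of all 10 mice.

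For each member, the genes with the highest r were sought among those above 10 CPM (8650 genes), which leaves out Ppard and Esrrb. They are the extremes of a large search, so no p is given. The closest was that of Esrrb with Acat2, a cytosolic acetyl-CoA acetyltransferase (r = 0.99, rho = 1, and r = 0.99 without Axl KO replicates 1 and 3). Esrrb has only 22 to 44 reads per mouse, so this r rests on few counts. Acat2 had 219, 179, 149, 176 and 214 CPM in Axl KO and 177, 166, 170, 157 and 135 CPM in WT replicates 1 to 5. Snrpe and Ubxn2a came next for Esrrb (r = 0.96 and 0.95). Ppargc1b varied most closely with AW549877, Atxn2 and Sox6 (r = 0.98, 0.96 and 0.95), and Ppara with Trim33, Ilvbl and Upf2 (r = 0.95, 0.95 and 0.93). Esrra varied most closely with Mtch1, Tmem14c and D10Jhu81e (r = 0.96, 0.96 and 0.96), which were 0.81, 0.86 and 0.85 without Axl KO replicate 3 and WT replicate 5. Rxra was closest to Tmem41a, Tppp and Gm45769 (r = 0.97, 0.96 and 0.94), Rxrg to Eci3, Zfp644 and Eif3e (r = 0.94, 0.93 and 0.92), and Esrrg to Recql, Fbxo31 and Fkbp2 (r = 0.97, 0.96 and 0.95). Ppargc1a was closest to Fam204a, Hexim1 and Chd7 (r = 0.94, 0.94 and 0.93), Ppard to Loxl1, H13 and Itm2b (r = 0.96, 0.96 and 0.95), and Pparg to Zbtb11, 6030458C11Rik and Ube3c (r = 0.95, 0.93 and 0.86). None of the 10 members was among the 3 closest genes of another member.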

How the data were processed

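Each of the 10 libraries came with 1 table of raw counts per Ensembl gene, deposited by the authors without normalization or pooling. Per the labels' processing notes, the authors used bcl2fastq, Trimmomatic 0.36, STAR 2.6.1c, DESeq2 and GRCm38.p5, and polyadenylated RNA, whereas the paper's methods name Trim Galore, hisat2, GRCm38 and rRNA-depleted RNA. The counting tool, its strand setting and the annotation release are not given in the sources used here. Counts of a gene do not separate its isoforms, and reads shared by overlapping genes are uncertain. Of the 41249 identifiers, 41163 were in GENCODE M21, which gave names, exon lengths and positions.

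Genotype, HFD and replicate number came from the labels, and nothing in them says that equal numbers mark shared litters. The labels do not say that the samples are separate animals beyond their replicate numbers, so p-values measure the spread between these samples. Any 2 tables differed by at least 5.47 in chi-square per gene, so each was counted once. Counts were normalized with TMM and compared with edgeR 4.0.16 in R 4.3.3 (quasi-likelihood test, 13739 genes with a mean above 1 CPM, Benjamini-Hochberg adjustment over all of them, threshold 0.05), after a check on simulated data. Depth per mouse (5431014 to 9580215 counts) limits Esrrb and Ppard most. RPKM used the union of GENCODE exons. Correlations used log2 CPM (prior count 2) minus genotype means, with permutation tests in numpy 2.4.6 and scipy 1.17.1. Promoter windows and motif letters came from RefSeq's table.

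The members and the gene lists were chosen with earlier results of these data known. Named genes were the members, Axl, Rxrb, Nr1h3, Thra, Nr1d1, Ucp1, the 3 genes of each list with the lowest p and the 3 genes closest to each member. Other names were chosen by their values or mark cell types. One gene of the PPAR target list is counted with its list and is not reported by name here. The alternatives were DESeq2 1.42.0, RLE factors, total counts, filterByExpr, no filter, a robust fit, the replicate block, a skeletal muscle covariate, protein-coding genes alone and each mouse left out in turn. Recomputing the list counts and the unadjusted member counts under these settings, the other transcript length, and the correlations in fewer mice were added after the data had been seen.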

Additional observations from a re-analysis of the deposited data

Results flagged for a closer look

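In 54 groups of 5 mice (the genes named by rule, in each genotype), 4 had 1 mouse farther from the others than Dixon's limit for 5 samples (0.71 of the range), and chance gives about 2.7. Esrra was lowest in Axl KO replicate 3, at 114 CPM with the nearest mouse at 150 CPM. Axl was lowest in Axl KO replicate 4, at 0.437 CPM with the nearest at 1.69 CPM. Ucp1 was highest in Axl KO replicate 5, at 7632 CPM with the nearest at 5571 CPM. Etfdh was highest in WT replicate 2, at 2126 CPM with the nearest at 1323 CPM.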

How the results depend on the processing

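No member was called under any alternative, edgeR or DESeq2, and the count of genes called was 1 except with DESeq2, which called 9, none a member but 2 of the PPAR targets, among them Gk. Members at an unadjusted p under 0.05 numbered 0 to 1 with 1 mouse left out (1, Esrra, without Axl KO replicate 3) and 0 otherwise. The count of PPAR targets at an unadjusted p under 0.05 was 7, and 4 to 19 with 1 mouse left out. The count of ERR and PGC-1 targets was 2, against 4 with DESeq2, 4 with total counts, 1 with the replicate block and 1 to 8 with 1 mouse left out. The 19 and the 8 came without Axl KO replicate 3, when the share of all genes at an unadjusted p under 0.05 was 14.8%, against 8.4% with all mice. The cause was not tested. The direction turned for Ppargc1a with the muscle covariate (-0.0175 on the log2 scale) and, with 1 mouse left out, for Rxra (-0.0378 to 0.0350, below 0 without Axl KO replicate 5 or WT replicate 1), Rxrg (-0.0015 to 0.136, below 0 without Axl KO replicate 2), Ppargc1a (-0.0416 to 0.0912, below 0 without Axl KO replicate 4 or WT replicate 1 or 5) and Ppargc1b (-0.0687 to 0.158, below 0 without Axl KO replicate 4 or WT replicate 1). Same-numbered mice of both genotypes correlated between -0.36 and 0.37 in their deviations from the genotype means. For Axl KO replicate 2 the value with WT replicate 2 (0.37) was above those with the other WT mice (at most 0.25), and for the other Axl KO mice it was not the highest. So few values cannot settle whether equal numbers mark shared litters. With the replicate block 1 gene and 0 members were called. Esrrb, with 22 to 44 reads per mouse, was limited most by depth.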
